A study of Homo sapiens with 18 samples.

Results

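Cytosolic ribosomal proteins were described here across 6 groups of human melanoma cells. The members were the genes whose probe sets carried a single current symbol of the RPL or RPS series, without the RPS6K kinases, RPS19BP1 and pseudogenes, and each gene was read from its probe set with the highest mean over all arrays. This gave 52 genes of 11232 genes with a single-symbol probe set, and all 52 passed the filter on low values (at least log2 4 on at least 3 arrays). RPS4Y1, on the Y chromosome, was given no value, so the counts below run over 51 genes: 19 genes of the 40S subunit, 25 of the 60S subunit and 7 paralog copies (RPL10L, RPL22L1, RPL26L1, RPL36AL, RPL39L, RPL7L1 and RPS27L).

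Expression was measured on 18 Affymetrix arrays, 3 for each group, and the deposited values were GCRMA signals on the log2 scale. In C32, a melanoma line, the groups were cells carrying lentiviral short hairpin RNAs (shRNAs) against FHL2 and cells carrying GFP vectors. In A375M2, a metastatic derivative of the melanoma line A375, the groups were cells carrying shRNAs against FHL2, shRNAs against NFYA, full-length PMEL, or GFP. FHL2 is a LIM-domain scaffold protein, NFYA belongs to the trimeric transcription factor NF-Y, and PMEL forms the fibrils inside melanosomes. The FHL2 shRNAs were a pool of 3 constructs, and no group is labelled as carrying a non-targeting shRNA. The treatment notes name an empty eGFP vector for the PMEL construct, selected with blasticidin, and copGFP particles for the shRNAs, selected with puromycin. They do not say which of these vectors the GFP arrays held. For the GFP, PMEL and shFHL2 groups of A375M2, cells sorted for GFP were kept under selection for 15 days and RNA was taken at 80% confluence in 3 experiments. The sources used here do not give such details for C32 or for the NFYA shRNA arrays.

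Ribosomal proteins coat the ribosomal RNA of the small (40S) and large (60S) ribosomal subunits, which together translate mRNA. Most of their mRNAs begin with a C followed by a run of C and T (U in the RNA), the 5′ terminal oligopyrimidine or TOP motif, through which the growth-controlling kinase mTORC1 and the RNA-binding protein LARP1 adjust their translation together. Proteins made in excess of ribosomes are usually degraded, and some free ones have other roles: RPL11 and RPL5, with the 5S RNA, bind and inhibit MDM2, the ubiquitin ligase of p53. A few genes have expressed paralog copies that can take the place of the parent protein in the ribosome.

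The bases around the transcription start are shown for some of the members named below, because they separate most core genes from most paralog copies. Exceptions not shown include RPL36AL, a paralog copy with a run of 15 C or T, and RPL6, a core gene whose longest run is 5. Each line runs from 10 bases before the start to 20 bases from it on the gene's own strand, 5′ to 3′, from RefSeq on GRCh38.p14. Capitals mark the run of 7 or more consecutive C or T that touches the bases from 5 before to 10 after the start.
RPS6 (chr9:19380217-19380246, minus strand): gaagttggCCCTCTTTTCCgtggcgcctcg
RPL11 (chr1:23691796-23691825, plus strand): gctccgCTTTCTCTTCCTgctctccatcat
RPS21 (chr20:62387093-62387122, plus strand): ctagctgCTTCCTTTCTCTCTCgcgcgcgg
RPL22 (chr1:6199576-6199605, minus strand): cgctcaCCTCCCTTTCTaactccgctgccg
RPL22L1 (chr3:170870176-170870205, minus strand): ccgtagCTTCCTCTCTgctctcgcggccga
RPS27 (chr1:153990752-153990781, plus strand): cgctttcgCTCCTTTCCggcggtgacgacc
RPS27L (chr15:63157458-63157487, minus strand): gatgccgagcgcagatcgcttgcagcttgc
RPL26L1 (chr5:172958870-172958899, plus strand): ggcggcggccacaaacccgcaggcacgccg
RPL3 (chr22:39319604-39319633, minus strand): gccgaccggcctctaccggcgggatttgat

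RefSeq start sites were found for 46 of the 51 members. Such a run, searched on the transcribed strand only, stood at the start of 35 of the 46 (76.1%), against 2146 of 9058 tested genes with a start site (23.7%). It was present in 33 of 40 core genes (82.5%) and in 2 of 6 paralog copies (33.3%), RPL22L1 and RPL36AL. RPS27 carries the run and RPS27L does not, whereas RPL22 and RPL22L1 both do. The longest run had a median length of 11 bases over the members, against 4 bases over all genes. A match is a description of these letters and not of how a transcript is translated.

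Most members lay near the top of the arrays' range. Of the 51, 42 had a mean above log2 14, and from 29 to 41 of them per array were above the 99th percentile of that array's probe sets (log2 14.68 to 14.73). The table's highest value was 16.72, and near the top of the range differences between arrays can be compressed. Of the 44 core genes, 40 had a mean of at least log2 14.54. The other 4, RPL27A, RPL37, RPL37A and RPS23, were read by probe sets with means of at most 9.37 and are given apart. Of the 51 probe sets, 17 were of the kind annotated as binding several transcripts (_x_at) and 20 of the kind annotated as shared by related transcripts (_s_at), so a member's value can include a near copy. A further 16 ribosomal protein genes, among them RPL5, RPL4 and RPLP2, were measured only by probe sets that list other symbols too, and are counted but not named with values below.

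Some arrays were not independent of each other. For C32 GFP, replicate 3 was close to the average of the other replicates (SD 0.00806 over 20506 probe sets, against 0.132 to 0.197 for arrays of the other groups), and was left out. In A375M2, the values of GFP replicate 3 and PMEL replicate 3 added up to the sum of their 2 group means over replicates 1 and 2 (SD 0.00719, against 0.235 for the same sum in shFHL2 and shNFYA). These 2 arrays were kept, and counts that change by over 1.5 times without them are given below. At the 546 probe sets under log2 4 on every array, the arrays fell into 3 sets that shared exactly equal values within a set (12 to 122 probe sets for each pair of arrays) and none between sets. Replicates 1 and 2 of A375M2 GFP and PMEL formed the first set, replicate 3 of A375M2 GFP, A375M2 PMEL and C32 GFP the second, and all 11 remaining arrays the third. In comparisons of any other group with A375M2 GFP, other than PMEL, the group and the array set therefore cannot be told apart. The comparisons of C32 shFHL2 with C32 GFP and of A375M2 shFHL2 with shNFYA lie within 1 set.

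The labels held for the targeted genes. On the log2 scale, FHL2 differed from GFP by -5.24 in C32 shFHL2 and by -4.04 in A375M2 shFHL2, NFYA by -2.06 in A375M2 shNFYA, and PMEL by 3.38 in A375M2 PMEL (each called by limma). NFYA also differed from GFP by -0.73 in A375M2 shFHL2 (adjusted p = 1.04e-06), and was at -0.12 in C32 shFHL2 (adjusted p = 0.336), a difference of effects of 0.61 (adjusted p = 0.000733). The lines were checked against 10 measured melanocyte genes. GPR143 alone was at a mean under log2 4 in both C32 groups, and MLANA alone in A375M2 PMEL and GFP. In A375M2 shFHL2 5 of the 10, PMEL and TYR among them, were under log2 4, and in shNFYA 4 of them. Of the 10, 8 fell in C32 shFHL2, 10 in A375M2 shFHL2 and 9 in A375M2 shNFYA, while 30.3%, 44.3% and 43.3% of all genes fell. MLANA was under log2 4 in A375M2 shFHL2 as well as in GFP, so the size of its fall there is uncertain.

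**Figure D1:**
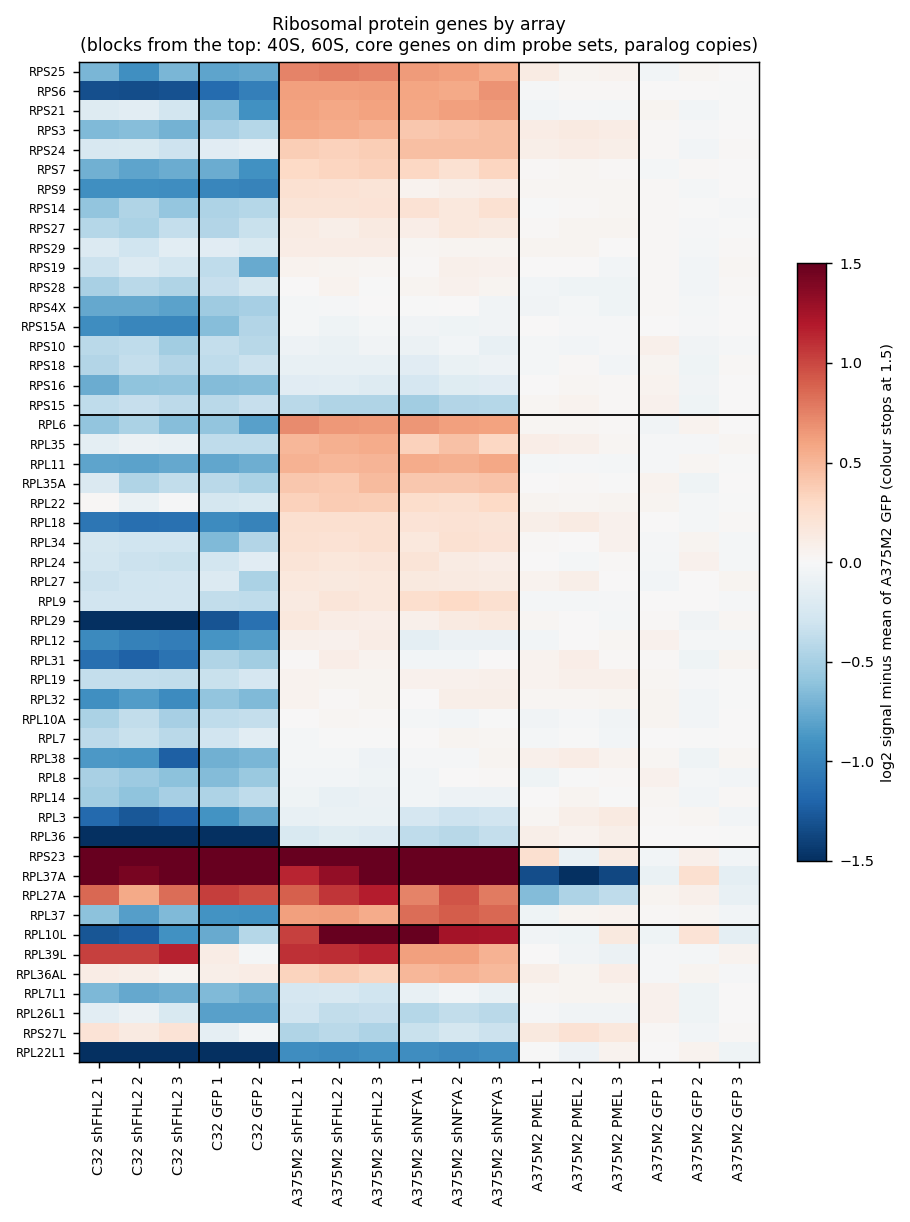
Log2 signal of each of the 51 genes on 17 arrays, minus the gene's mean in A375M2 GFP, with groups from left to right and colour stopping at 1.5. In both C32 GFP columns all 40 core genes on bright probe sets lie below 0, and RPS6 stands above 0 in every array of the A375M2 shRNA groups.

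In A375M2 shFHL2, ribosomal protein genes were more often higher than lower. Of 51 genes, 29 rose, 10 fell and 12 did not pass the test (limma, Benjamini-Hochberg adjusted p under 0.05), while 41.1% of all 10940 genes rose and 44.3% fell. The median over the members was 0.12 on the log2 scale, against -0.04 over all genes. With each array centred on its median, which is 9.05 in shFHL2 and 9.19 in GFP, 38 members rose and 6 fell (median 0.26), and after quantile normalisation 23 rose and 15 fell (median 0.05). The 40 bright core genes changed little in size, from -0.43 to 0.75, so that none reached a 2-fold difference.

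RPS6, the substrate of the S6 kinases, read 16.63, 16.63 and 16.65 in shFHL2, against 16.02, 16.03 and 16.01 in GFP. It rose by 0.62 on the log2 scale (SE 0.031, adjusted p = 2.2e-12), or 1.54-fold. RPS25, a small-subunit protein used by some viral internal ribosome entry sites, read 16.70, 16.72 and 16.69 in shFHL2, against 15.91, 15.98 and 15.96 in GFP, and had the largest rise of the bright core genes (0.75, SE 0.0482, adjusted p = 7.36e-11). All shFHL2 arrays were above all GFP arrays for both genes. Further small-subunit rises were RPS21 (0.60), RPS3 at the mRNA entry channel (0.55), RPS24 (0.36, but -0.36 on its second probe set) and RPS7 (0.32). RPS15, near the decoding centre, went the other way. It read 15.33, 15.28 and 15.28 in shFHL2, against 15.79, 15.66 and 15.74 in GFP (-0.43, SE 0.0329, adjusted p = 8.89e-10). RPS16 and RPS18 fell by 0.18 and 0.11, but RPS18 was at 0.03 with arrays centred on the median, and a second RPS16 probe set was at 0.24.

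In the large subunit, RPL6 read 16.19, 16.13 and 16.12 in shFHL2, against 15.42, 15.53 and 15.48 in GFP, and rose by 0.67 (SE 0.0486, adjusted p = 4.68e-10). RPL11, the MDM2-binding partner of RPL5, read 15.74, 15.72 and 15.73 in shFHL2, against 15.20, 15.25 and 15.22 in GFP (0.51, SE 0.024, adjusted p = 1.01e-12). The groups did not overlap for either gene. RPL35 (0.53), RPL35A (0.43) and RPL22 (0.36) also rose. RPL36 fell by 0.20 (adjusted p = 8.13e-07) and RPL3, which reaches into the peptidyl transferase centre, fell by 0.10, a difference that was 0.03 with arrays centred on the median and lost its call without GFP replicate 2. RPL7 was at -0.02 (adjusted p = 0.65). All 4 measured genes of the list of MDM2-binding ribosomal proteins rose, with a median of 0.41. Of 13 measured genes mutated in Diamond-Blackfan anaemia, an inherited red-cell failure of ribosomal protein loss, 9 rose and none fell (median 0.16). The genes of these lists are members too, so the counts are not separate from those above.

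In A375M2 shNFYA, set against the same GFP arrays, members were also more often higher than lower. Of 51 genes, 27 rose, 10 fell and 14 did not pass the test, while 43.5% of all genes rose and 43.3% fell. The median was 0.12, against 0.00 over all genes. It was 0.24 with arrays centred on the median (37 rose, 6 fell) and 0.01 after quantile normalisation (23 rose, 19 fell). RPS6 read 16.61, 16.59 and 16.69 in shNFYA, against 16.02, 16.03 and 16.01 in GFP, and rose by 0.61 (SE 0.031, adjusted p = 2.12e-12). RPL11 read 15.78, 15.76 and 15.80 in shNFYA, against 15.20, 15.25 and 15.22 in GFP, a rise of 0.56. No shNFYA array overlapped GFP for these genes. RPL6 (0.63), RPS21 (0.61), RPS25 (0.60), RPS24 (0.46, but -0.11 on its second probe set) and RPS3 (0.43) rose as well. Falls included RPS15 (-0.46), RPL36 (-0.38) and RPL3 (-0.29). RPL12, a protein at the base of the ribosomal stalk, fell by 0.11 but was at 0.02 with arrays centred on the median.

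NF-Y binds the sequence CCAAT, so this pentamer (or ATTGG, its form on the other strand) was counted in the 250 bases before each start. It occurred in 13 of 46 members (28.3%), against 42.3% of all tested genes with a start site. In shNFYA, 10 of these 13 members rose, none fell and 3 (RPL14, RPL32 and RPL38) did not pass the test, with a median of 0.20. Of the 33 members without it, 15 rose, 10 fell and 8 did not pass, with a median of 0.06. In shFHL2, set against the same GFP arrays, 9 of the 13 rose, RPL14 fell (its probe sets ran from -0.09 to 1.86) and 3 did not pass (median 0.21). Of the 33 without the pentamer, 18 rose, 9 fell and 6 did not pass (median 0.11). Among all genes with a start site, those with the pentamer rose at 43.8% and fell at 43.5% in shNFYA, and those without it rose at 44.4% and fell at 42.1%. In shFHL2, all genes with the pentamer rose at 41.8% and fell at 43.9%, and those without it rose at 41.6% and fell at 43.6%. Ribosomal protein promoters with the pentamer in that window included those of RPL22, RPL35, RPS24 and RPL36AL. Whether NF-Y binds there was not measured, and the difference between these groups of genes was not tested.

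Control measures moved with the shRNA groups of A375M2. Probe sets for 18S ribosomal RNA read 14.18 ± 0.07 in shFHL2 and 14.19 ± 0.11 in shNFYA, against 12.52 ± 0.03 in GFP (log2, SD, n = 3 each). The 3′ probe set of actin exceeded the 5′ one by 1.07 ± 0.08 in shFHL2 and 1.19 ± 0.08 in shNFYA, against 0.61 ± 0.13 in GFP. For GAPDH the same difference went the other way, at -0.09 ± 0.02 in shFHL2 and -0.02 ± 0.01 in shNFYA, against 0.08 ± 0.02 in GFP. Of 11 listed keratinocyte and epithelial markers, 4 were measured, and these 4 were higher in both shRNA groups. The summed log2 level of the 4 was 10.73 to 10.77 in shFHL2 and 11.04 to 11.19 in shNFYA, against 8.66 to 8.85 in GFP. KRT14 was at a mean under log2 4 in shFHL2. KRT14, KRT15 and DSC3 were under it in GFP, in PMEL and in both C32 groups. The filter on low values thus kept these genes through the shRNA groups of A375M2, so their rise there was largely set by the filter. Of 5 measured fibroblast markers, 4 fell in both shRNA groups. Their summed level was 8.90 to 9.02 in shFHL2 and 8.69 to 8.89 in shNFYA, against 11.50 to 11.69 in GFP. In PMEL 4 of the 5 were lower than in GFP too, with a summed level of 10.20 to 10.24. COL1A2 was at a mean under log2 4 in all 4 A375M2 groups, and FAP in both shRNA groups. The immune marker PTPRC was under log2 4 in all 4 A375M2 groups. LYZ was under it in A375M2 GFP and PMEL, and was higher in both shRNA groups. In C32 GFP, PTPRC was not under log2 4 but LYZ was, and their summed level was 8.63 to 8.74, against 4.07 to 4.38 in A375M2 GFP. In C32 shFHL2 neither was under log2 4, and the summed level was 7.89 to 8.24. The filter thus kept LYZ through shRNA groups and PTPRC through the C32 groups. Where these immune genes were higher was therefore largely set by the filter too. In C32, all 4 keratinocyte markers were under log2 4 in both groups, and the summed fibroblast level was 12.73 to 12.75 in shFHL2, against 12.15 to 12.32 in GFP. The part of these in the ribosomal protein results was not tested. The arrays measure RNA of whole cultures at a fixed input, so less RNA per cell and fewer cells of a kind cannot be told apart.

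**Figure D2:**
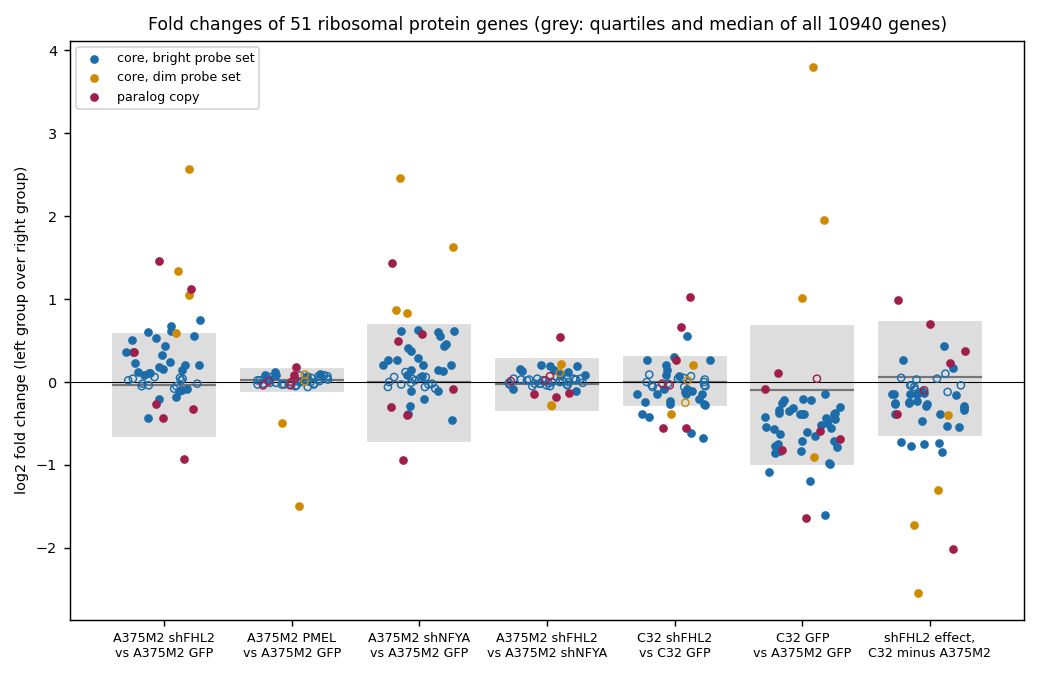
Log2 fold change of each of the 51 genes in 7 comparisons, with filled points called at adjusted p under 0.05, open points not called, and grey boxes for the quartiles and median of all 10940 genes. The bright core genes stay within a narrow band, from -0.43 to 0.75 in A375M2 shFHL2 and from -0.06 to 0.12 in PMEL, and all lie below 0 in C32 GFP against A375M2 GFP.

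The shRNA groups of A375M2 were also set against each other, within 1 array set. Of 51 genes, 11 were higher and 6 lower in shFHL2 than in shNFYA, and 34 did not pass the test, while 31.8% of all genes were higher and 38.3% lower. The median was 0.01. RPS6 differed by 0.01 (adjusted p = 0.844), RPL11 by -0.05 (adjusted p = 0.057) and RPL22L1 by 0.01 (adjusted p = 0.906). RPL39L, a paralog of the exit-tunnel protein RPL39 that is most abundant in testis, had the largest difference. It read 7.19, 7.21 and 7.26 in shFHL2, against 6.72, 6.71 and 6.62 in shNFYA (0.54, SE 0.0758, adjusted p = 5.9e-06). RPL12 (0.20), RPL36 (0.19) and RPL3 (0.19) were higher in shFHL2, and RPL37 (-0.28), RPL7L1 (-0.18) and RPL36AL (-0.14) were lower. RPL37 turned to 0.14 with the mean of its 3 probe sets, which ran from -0.31 to 1.02. The standard errors of the members had a median of 0.0342 on the log2 scale.

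In A375M2 PMEL few members passed the test. Of 51 genes, 7 rose, 2 fell and 42 did not pass the test, while 22.1% of all genes rose and 17.8% fell. With replicate 3 of A375M2 GFP, of PMEL or of both left out, 4 rose. RPS27L read 15.31, 15.38 and 15.32 in PMEL, against 15.18, 15.12 and 15.18 in GFP, and rose by 0.18 (SE 0.0341, adjusted p = 0.000534). The direction turned with the choice of probe set, to -0.54 on its most variable one and -0.07 with the mean of its 3. RPS3 (0.12), RPS24 (0.10), RPL18 (0.09), RPL36 (0.08), RPL36AL (0.08) and RPL19 (0.07) rose by less, and RPL19 lost its call under 17 of 31 alternatives. RPL18, RPL36 and RPL36AL also lost theirs when single arrays were left out: RPL18 without PMEL replicate 2, and RPL36 and RPL36AL without PMEL replicate 1, PMEL replicate 3 or GFP replicate 3, and RPL36AL without GFP replicate 1 too. RPS6 was at 0.01 (adjusted p = 0.917), RPL11 at -0.03 (adjusted p = 0.375), and RPL22 at 0.03 (adjusted p = 0.412). RPL22L1 averaged 14.59 ± 0.07 in PMEL and 14.59 ± 0.06 in GFP (SD, n = 3 each). The 18S probe sets read 11.08 ± 0.02 in PMEL, against 12.52 ± 0.03 in GFP (SD, n = 3 each), while the median of the members was 15.64 ± 0.01 in PMEL and 15.62 ± 0.03 in GFP.

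In C32, the FHL2 shRNAs went with a different balance. Of 51 genes, 12 rose, 21 fell and 18 did not pass the test in C32 shFHL2, while 32.2% of all genes rose and 30.3% fell. The median was -0.05, against 0.00 over all genes. Of the 40 bright core genes, 8 rose and 18 fell. RPL31, at the mouth of the exit tunnel, read 14.57, 14.48 and 14.59 in shFHL2, against 15.25 and 15.18 in GFP, and fell by 0.67 (SE 0.0414, adjusted p = 2.32e-10). RPL29 read 13.72, 13.78 and 13.51 in shFHL2, against 14.20 and 14.38 in GFP (-0.62, SE 0.062, adjusted p = 1.06e-07). All shFHL2 arrays were below both GFP arrays for these genes, and for RPS6 as well, which read 14.70, 14.69 and 14.71 in shFHL2, against 14.87 and 14.99 in GFP (-0.23, SE 0.0347, adjusted p = 1.68e-05). Other falls were RPS15A (-0.42, but 0.39 on its most variable probe set), RPL3 (-0.39), RPL38 (-0.28, but -0.16 without shFHL2 replicate 3), RPL32 (-0.27) and RPS4X (-0.26).

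Rises in C32 shFHL2 were led by RPL39L, RPL26L1 and RPS21. RPS21, a 40S protein that takes part in processing of the small-subunit RNA, read 15.48, 15.52 and 15.40 in shFHL2, against 15.03 and 14.77 in GFP (0.56, SE 0.0537, adjusted p = 5.96e-08). RPS19, the gene most often mutated in Diamond-Blackfan anaemia, rose by 0.30 (adjusted p = 0.000824), a size that rests on C32 GFP arrays of 15.43 and 15.06: it was 0.49 without GFP replicate 1 and 0.12 without GFP replicate 2. RPL34 rose by 0.27 (0.16 without GFP replicate 1), RPL35 by 0.27 and RPL22 by 0.21. RPL11 was at -0.04 (adjusted p = 0.237). For RPL22 the probe sets disagreed: those annotated as binding several transcripts were at 0.20 and 0.21, and the other 2 at -0.13 and -0.53. Of the 39 bright probe sets that list a ribosomal protein gene with other symbols, 4 were higher and 27 lower in C32 shFHL2 (median -0.22). In the same C32 arrays, the signal of poly-A spike-in controls was 6.30 ± 0.04 in shFHL2 (SD, n = 3), against 9.69 ± 0.26 in GFP (SD, n = 2), and the 18S signal was 13.94 ± 0.10 in shFHL2 cells, against 13.28 ± 0.13 in GFP cells. The part of these preparation measures in the result was not tested.

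**Figure D3:**
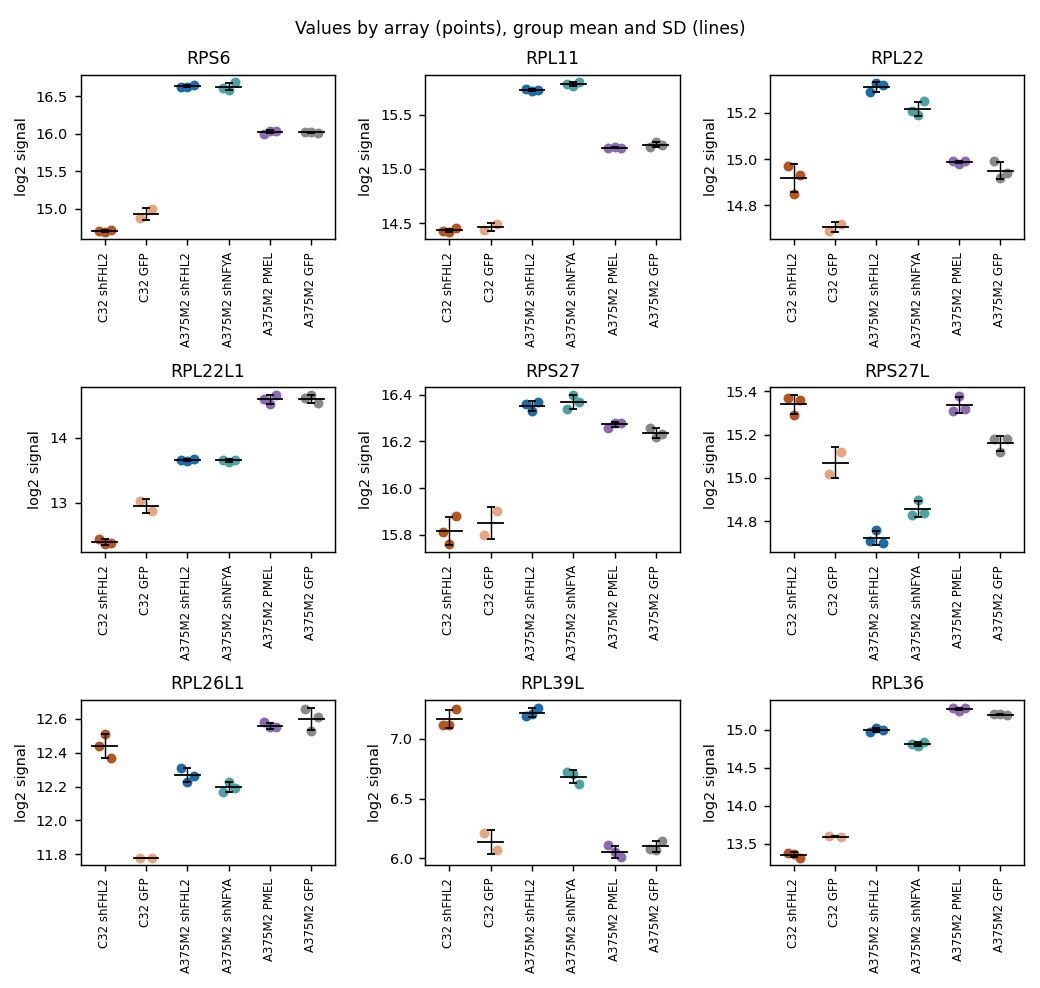
Log2 signal by array for 9 genes in the 6 groups, with points for arrays and lines for the group mean and SD (n = 2 for C32 GFP, n = 3 otherwise). RPS6 and RPL11 stand at 16.59 to 16.69 and 15.72 to 15.80 in the A375M2 shRNA groups, above A375M2 PMEL and GFP, and below log2 15 in C32.

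The effect of the FHL2 shRNAs was more often lower in C32 than in A375M2. The difference of the effects, C32 minus A375M2, passed the test at 40 of 51 genes (78.4%), which is close to the 80.2% of all genes. It was higher at 7 members and lower at 33, while 42.1% of all genes were higher and 38.1% lower. Its median was -0.23 over the members, against 0.06 over all genes. It was -0.34 with arrays centred on the median (4 higher, 38 lower) and -0.20 after quantile normalisation (12 higher, 30 lower). This difference includes the A375M2 GFP arrays, so it also crosses the array sets. RPS6 fell in C32 (-0.23) and rose in A375M2 (0.62), a difference of -0.85 (SE 0.0465, adjusted p = 1.5e-11). The same held for RPS3 (-0.21 in C32 and 0.55 in A375M2, difference -0.77). RPS25 was at 0.03 in C32 and rose by 0.75 in A375M2, a difference of -0.73 (adjusted p = 5.07e-08). The 5S RNA-binding RPL11 differed by -0.54 (adjusted p = 1.99e-10). RPS15 was at 0.00 in C32 and fell in A375M2, a difference of 0.44.

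Of 33 members called in C32 and 39 called in A375M2, 25 were called in both, which is 75.8% of the C32 calls and 64.1% of the A375M2 calls. These shares are close to those of all 51 members called in A375M2 (76.5%) and in C32 (64.7%). Over all genes the shares were 85.6% of the C32 calls and 62.8% of the A375M2 calls. Of the 25, 13 moved the same way, against 58.4% of the 5864 genes called in both lines, and 12 moved oppositely, and the difference passed the test for all 12. RPL22, RPL34, RPL35, RPL37, RPL39L, RPL6, RPL9, RPS21 and RPS9 rose in both lines. RPL14, RPL22L1, RPL3 and RPL36 fell in both. The probe sets of some of these genes disagreed in sign. Those of RPL14 ran from -0.09 to 1.86 in A375M2 and from -0.12 to 0.31 in C32. In C32, those of RPL37 ran from -0.25 to 0.33 and those of RPL22 from -0.53 to 0.21. With RPS6 and RPS3 among them, 10 genes fell in C32 and rose in A375M2, and RPL26L1 and RPS27L rose in C32 and fell in A375M2. RPS21 rose by 0.56 in C32 and 0.60 in A375M2 (difference -0.04, SE 0.0721, adjusted p = 0.66).

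**Figure D4:**
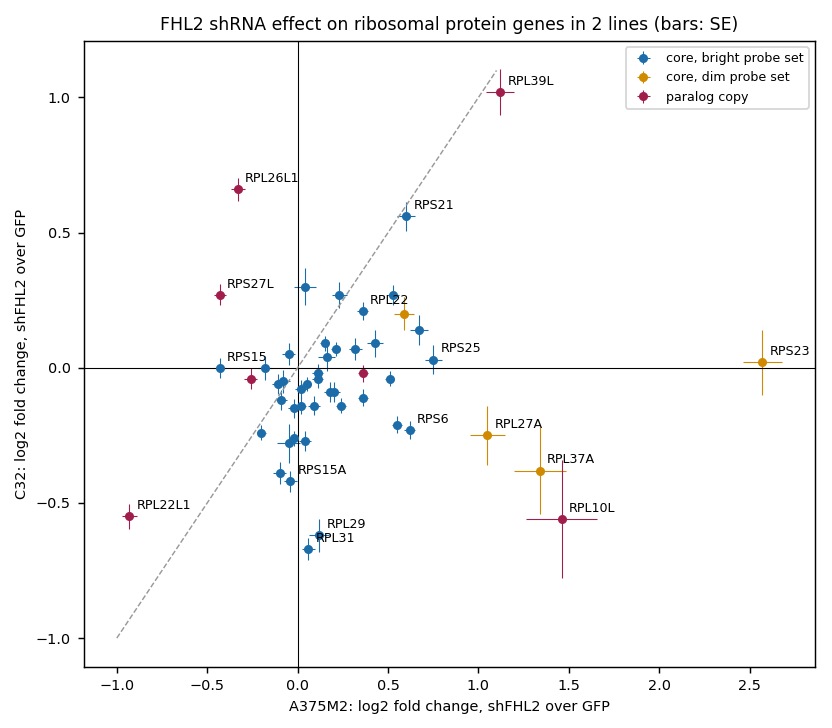
Log2 fold change of FHL2 shRNA over GFP in C32 (vertical axis) against that in A375M2 (horizontal axis) for the 51 genes, with bars for the SE and a dashed line of equality. RPL39L and RPS21 lie near the line, while RPS6, RPS25 and the dim probe sets lie below it, and RPL26L1 and RPS27L lie at the upper left.

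Ribosomal protein mRNAs read lower in C32 than in A375M2. In C32 GFP against A375M2 GFP, 46 of 51 genes were lower, 4 were higher and 1 did not pass the test, while 47.2% of all genes were lower and 38.7% higher. The median was -0.49, against -0.10 over all genes, and all 40 bright core genes were lower, from -0.15 to -1.60. This holds for the probe set with the highest mean of each gene. Other probe sets of some of the 40 were higher in C32 GFP, up to 1.67 for RPS10, 1.30 for RPL35A, 1.19 for RPS29 and 0.73 for RPL14. Among 24 members with several probe sets, all those of a gene had the same sign for 15. With arrays centred on the median 39 were lower and 6 higher (median -0.28), and after quantile normalisation 43 were lower and 4 higher. The comparison crosses the array sets. Within 1 set, C32 shFHL2 against A375M2 shFHL2, a comparison chosen after the data were seen, had 45 lower, 3 higher and 3 not called (median -0.54), while 48.9% of all genes were lower and 41.3% higher. There 39 of the 40 bright core genes were lower and RPS15 was at 0.06 (adjusted p = 0.0896).

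RPL36 had the largest difference of the bright core genes between the lines. It read 13.60 and 13.59 in C32 GFP, against 15.20, 15.20 and 15.19 in A375M2 GFP (-1.60, SE 0.0279, adjusted p = 4.37e-19), or 3.04-fold lower, and differed by -1.64 within 1 array set. RPL29 read 14.20 and 14.38 in C32 GFP, against 15.52, 15.44 and 15.53 in A375M2 GFP (-1.20). RPS6 read 14.87 and 14.99 in C32 GFP, against 16.02, 16.03 and 16.01 in A375M2 GFP (-1.09, SE 0.0347, adjusted p = 2.04e-15). No C32 array reached an A375M2 array for these genes. RPS9 (-0.99), RPL18 (-0.98), RPL12 (-0.86) and RPL11 (-0.75) were also lower. RPS24 (-0.15) and RPS29 (-0.20, but 1.19 on its second probe set) had the smallest differences of the 40. Of the 39 bright probe sets with several symbols, 38 were lower and none higher (median -0.59). Poly-A spike-ins read 9.69 ± 0.26 in C32 GFP (SD, n = 2), against 7.37 ± 0.07 in A375M2 GFP (SD, n = 3), and hybridisation spike-ins read 13.15 ± 0.15 in C32 GFP, against 12.57 ± 0.07 in A375M2 GFP. Their part in the difference between the lines was not tested.

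The 7 paralog copies moved in different directions: 3 rose and 4 fell in A375M2 shFHL2, and 3 rose and 2 fell in C32 shFHL2. RPL22L1, which can replace RPL22 in the ribosome, fell in all 3 shRNA groups. In A375M2 it read 13.66, 13.64 and 13.67 in shFHL2 and 13.66, 13.63 and 13.66 in shNFYA, against 14.60, 14.65 and 14.53 in GFP. The falls were -0.93 (SE 0.0423, adjusted p = 5.28e-13) and -0.94 (adjusted p = 3.65e-13), or 1.91-fold and 1.92-fold. In C32 it read 12.45, 12.37 and 12.38 in shFHL2, against 13.03 and 12.87 in GFP (-0.55, SE 0.0472, adjusted p = 1.55e-08). Its parent RPL22 read 15.29, 15.33 and 15.32 in A375M2 shFHL2, 15.21, 15.19 and 15.25 in shNFYA and 14.99, 14.92 and 14.94 in GFP, so it rose by 0.36 and 0.26 where RPL22L1 fell. Between C32 GFP and A375M2 GFP, RPL22L1 differed by -1.64 (3.11-fold lower, adjusted p = 5.14e-16) and RPL22 by -0.25.

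RPS27L, a p53-inducible copy of RPS27, read 14.71, 14.76 and 14.70 in A375M2 shFHL2 and 14.83, 14.90 and 14.84 in shNFYA, against 15.18, 15.12 and 15.18 in GFP. It fell by 0.43 (adjusted p = 1.37e-09) and 0.30 (adjusted p = 1.85e-07). In C32 it read 15.37, 15.29 and 15.36 in shFHL2, against 15.02 and 15.12 in GFP, and rose by 0.27 (adjusted p = 8.06e-06), so the effects differed by 0.70 (SE 0.0512, adjusted p = 7.45e-10). Its 3 probe sets disagreed: in A375M2 shFHL2 they were at -0.43, 0.81 and -0.45, and in C32 at 0.27, -0.35 and 0.17. RPS27, the parent, rose by 0.11 in A375M2 shFHL2 (adjusted p = 0.00304), though it was at -0.14 after quantile normalisation, and was at -0.04 in C32 (adjusted p = 0.414). Of 19 measured p53 targets, 7 rose and 10 fell in A375M2 shFHL2, with GADD45A at 1.48, FAS at 1.81 and ZMAT3 at -1.72, and 6 rose and 5 fell in C32 shFHL2. These counts were near the shares of all genes, of which 41.1% rose and 44.3% fell in A375M2 shFHL2, and 32.2% and 30.3% in C32 shFHL2.

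RPL26L1, a near copy of RPL26, which itself is not analysed here, read 12.31, 12.23 and 12.26 in A375M2 shFHL2, against 12.66, 12.53 and 12.61 in GFP (-0.33, adjusted p = 3.01e-07). In C32 it read 12.44, 12.51 and 12.37 in shFHL2, against 11.78 and 11.78 in GFP (0.66, SE 0.0435, adjusted p = 5.01e-10). The effects differed by 0.99 (SE 0.0584, adjusted p = 3.87e-11), the largest positive difference among the members. RPL39L rose in every shRNA group. It read 7.12, 7.12 and 7.25 in C32 shFHL2, against 6.21 and 6.07 in C32 GFP (1.02, adjusted p = 9.96e-09). In A375M2 it read 7.19, 7.21 and 7.26 in shFHL2 and 6.72, 6.71 and 6.62 in shNFYA, against 6.08, 6.07 and 6.15 in GFP. Those rises were 1.12 (SE 0.0758, adjusted p = 1.64e-10) and 0.58 (adjusted p = 1.19e-06), and the FHL2 effects in the lines differed by -0.10 (adjusted p = 0.432). RPL36AL, which encodes nearly the same protein as RPL36A, rose by 0.36 in A375M2 shFHL2 and 0.50 in shNFYA and was at -0.02 in C32 (adjusted p = 0.55). RPL7L1, a nucleolar relative of RPL7 that acts in ribosome assembly, fell by 0.26 in A375M2 shFHL2 and was at -0.04 in C32 (adjusted p = 0.427). RPL10L, a testis-expressed retrocopy of RPL10, lay near the filter. It read 6.08, 6.57 and 6.90 in A375M2 shFHL2, against 4.99, 5.26 and 4.91 in GFP (1.46, SE 0.195, adjusted p = 1.65e-06), and fell by 0.56 in C32 shFHL2 to a mean of 3.91 ± 0.20 (SD, n = 3), under log2 4, so the size of that fall is uncertain. The call in C32 was lost under 7 of 31 alternatives, among them those without GFP replicate 2 (-0.39), shFHL2 replicate 1 (-0.48) or shFHL2 replicate 2 (-0.51).

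The 4 core genes on dim probe sets had large and uneven values. RPS23, a decoding-centre protein, read 7.15, 7.34 and 7.22 in A375M2 shFHL2 and 7.11, 7.19 and 7.09 in shNFYA, against 4.63, 4.74 and 4.63 in GFP. It rose by 2.57 (SE 0.108, adjusted p = 1.77e-13) and 2.46 and was at 0.02 in C32 shFHL2 (adjusted p = 0.929). In C32 GFP it read 8.68 and 8.25, or 3.80 above A375M2 GFP, a direction opposite to that of the 40 bright core genes. RPL37A rose by 1.34 in A375M2 shFHL2 and fell by 1.50 in PMEL, where it read 7.21, 6.72 and 7.17, against 8.44, 8.78 and 8.39 in GFP. A second RPL37A probe set was at -0.92 in shFHL2 and 0.31 in PMEL. RPL27A rose by 1.05 in A375M2 shFHL2 and fell by 0.49 in PMEL. RPL37 rose by 0.59 in A375M2 shFHL2 and by 0.20 in C32 shFHL2, where its 3 probe sets ran from -0.25 to 0.33. Why the dim probe sets of these 4 genes read low was not tested. Of 24 members with several single-symbol probe sets, all probe sets of a gene had the same sign for 13 genes in A375M2 shFHL2, 12 in shNFYA, 10 in PMEL, 17 in C32 shFHL2 and 15 between the lines.

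Other genes of ribosome production and translation were counted by list. For all genes, the shares that rose and fell were 41.1% and 44.3% in A375M2 shFHL2, 32.2% and 30.3% in C32 shFHL2, and 22.1% and 17.8% in PMEL, and 38.7% were higher and 47.2% lower in C32 GFP than in A375M2 GFP. Of 45 measured ribosome biogenesis factors, 27 rose and 4 fell in C32 shFHL2 (median 0.19), where 12 of 51 ribosomal protein genes rose and 21 fell. GAR1, a protein of the small nucleolar particles that modify ribosomal RNA, rose by 0.72 and MRTO4, which prepares the stalk site of the large subunit, by 0.71. In A375M2 shFHL2, 16 rose and 22 fell (median -0.08), with NCL (nucleolin) at -0.79 and PES1 at -1.12. In A375M2 PMEL 25 of the 45 rose and 4 fell (median 0.10). Between the lines 37 were lower and 5 higher in C32 GFP (median -0.96), with HEATR1 at -2.10 and UTP14A at -2.21. The difference of the FHL2 shRNA effects, which crosses the array sets, was higher at 30 and lower at 9 of the 45 (median 0.44). Over all genes it was higher at 42.1% and lower at 38.1%.

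Of 15 measured genes of RNA polymerase I transcription, which makes the large ribosomal RNA precursor, 8 rose and 2 fell in C32 shFHL2 and 7 rose and 7 fell in A375M2 shFHL2. TAF1A rose by 1.76 and TAF1C fell by 2.18 there, both subunits of the factor that selects the ribosomal RNA promoter. MYC, a driver of ribosome production, fell by 2.28 in A375M2 shFHL2 and 1.79 in shNFYA and was 1.10 higher in C32 GFP than in A375M2 GFP. Among 7 measured genes of the MYC family and its partners, 1 rose and 4 fell in A375M2 shFHL2. In shNFYA 3 rose and 4 fell, while 43.5% of all genes rose and 43.3% fell. In C32 shFHL2 1 of the 7 rose and 2 fell, and between the lines 4 were higher and 1 lower in C32 GFP. Of 12 measured subunits of initiation factor eIF3, 11 were lower and 1 higher in C32 GFP than in A375M2 GFP (median -1.12), with EIF3G at -2.02. In A375M2 shFHL2, 4 rose and 6 fell, with EIF3B at -1.75 and EIF3A at 0.81. Of 12 measured elongation factors and other TOP mRNAs, 10 were lower and none higher between the lines (median -0.74), and 5 rose and 4 fell in A375M2 shFHL2. Set against shNFYA, A375M2 shFHL2 had 10 of the 12 higher and 1 lower (median 0.30), while 31.8% of all genes were higher and 38.3% lower. EEF1A1, the factor that brings aminoacyl-tRNA to the ribosome, fell by 0.32 in A375M2 shFHL2 and 0.65 in shNFYA. Of 20 other initiation factors, 11 rose and 4 fell in C32 shFHL2, and 6 rose and 9 fell in A375M2 shFHL2. Of 15 genes of the mTORC1 and S6 kinase pathway, 6 rose and 8 fell in A375M2 shFHL2, where SESN2 and DDIT4, which restrain mTORC1, rose by 2.48 and 1.17, and 6 rose and 5 fell in C32 shFHL2. In A375M2 shFHL2, the counts for RNA polymerase I, eIF3, the other initiation factors and the mTORC1 pathway were all near the shares of all genes given above.

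**Figure D5:**
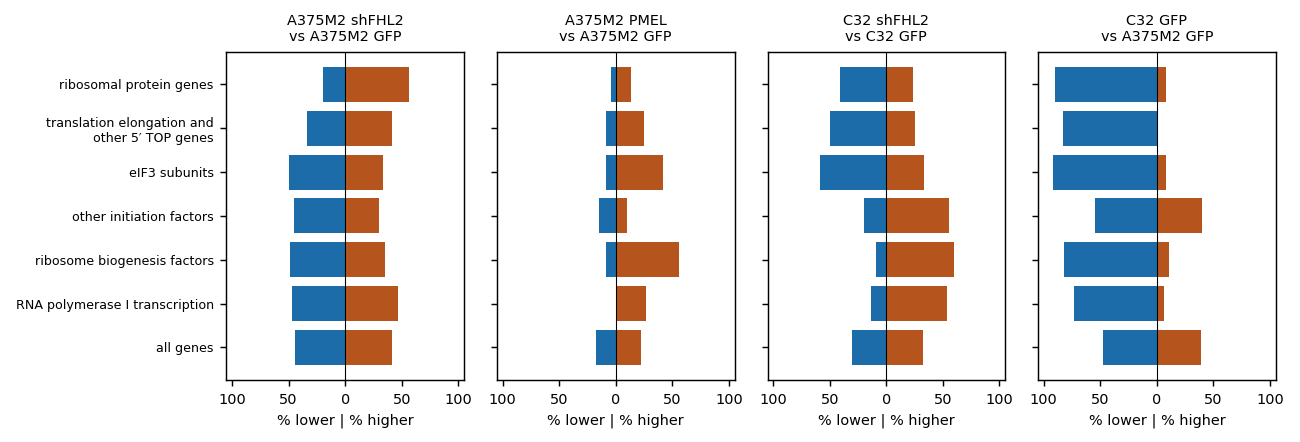
Share of measured genes of each list called higher (right of 0) or lower (left of 0) in 4 comparisons, with all 10940 genes at the bottom. Ribosomal protein genes are mostly higher in A375M2 shFHL2 (29 of 51), and in C32 shFHL2 they are more often lower (21 of 51) while ribosome biogenesis factors are more often higher (27 of 45).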

How the data were processed

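RNA of 18 cultures was hybridised to Affymetrix arrays, 3 for each of 6 groups named by the sample labels. The deposited values are log2 signals of 23416 probe sets, made by the authors with GCRMA per the submitters' processing notes, whose version the sources used here do not give. Arrays have no read depth, and their number limits the precision. Probe sets were named through the platform annotation, with symbols updated by Entrez ID: 20264 had 1 symbol, 995 several and 2099 none. Each gene was read from its probe set with the highest mean, and 10940 genes with at least log2 4 on at least 3 arrays were tested with limma 3.58.1 (R 4.3.3; lmFit, then eBayes with trend) in 1 model of 17 arrays with 11 residual degrees of freedom. P-values were adjusted by Benjamini-Hochberg over all genes tested, and genes under 0.05 are called. The fit was tested on simulated data. Where the labels do not say that cultures were separate, as for C32 and shNFYA, p-values measure only the spread between these samples, which may be technical.

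The members and lists were chosen with earlier results of these data known. Genes were named if among the 8 largest non-overlapping rises or falls of a comparison, with RPS6, RPL11 and the paralog pairs always given. Same-numbered replicates did not deviate in the same direction (40 pairs, 0 with a correlation over 0.1), so no pairing was used. The lowest correlations were negative: -1.00 for A375M2 GFP 3 with PMEL 3, the linked arrays described above, and -0.25 for GFP 1 with PMEL 1. The model treated all its arrays as independent, the linked ones among them. Scaling, filter, probe-set choice, variance model and leaving out arrays were varied. Sequences are RefSeq's, on GRCh38.p14.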

Additional observations from a re-analysis of the deposited data

Results flagged for a closer look

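The FHL2 shRNA effect differed between the lines by the test of the difference itself (C32 minus A375M2, limma, adjusted p under 0.05) at 33 members with a lower and 7 with a higher effect in C32, or 78.4% of members in all, against 80.2% of all genes. This difference crosses the array sets. Among core genes on bright probe sets it was -0.85 for RPS6, -0.77 for RPS3, -0.75 for RPL29, -0.73 for RPS25, -0.54 for RPL11, -0.29 for RPL3, -0.15 for RPL22, -0.15 for RPS27 and -0.14 for RPL7. It was 0.44 for RPS15, 0.26 for RPS19 and 0.17 for RPS16. The value for RPS19 was 0.44 without C32 GFP replicate 1 and 0.07, no longer called, without C32 GFP replicate 2. Without C32 GFP replicate 2, RPL7 (-0.07) and RPS27 (-0.10) lost their calls too. Among the paralog copies it was 0.99 for RPL26L1, 0.70 for RPS27L, 0.38 for RPL22L1, 0.23 for RPL7L1, -0.38 for RPL36AL and -2.02 for RPL10L, whose mean in C32 shFHL2 (3.91) lies under log2 4, so that the size of its difference is uncertain. On the dim probe sets it was -2.55 for RPS23, -1.73 for RPL37A and -1.30 for RPL27A.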

How the results depend on the processing

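Up to 31 alternatives were run for each of 153 results of single members: 101 kept call and direction throughout, 25 reversed under at least 1, 27 lost a call and 11 gained one. Leaving out each array in turn gave 27 to 29 members higher and 9 to 11 lower in A375M2 shFHL2, 4 to 8 and 2 in PMEL, 26 to 29 and 9 to 12 in shNFYA, 9 to 12 and 6 to 7 in shFHL2 against shNFYA, 9 to 13 and 16 to 22 in C32 shFHL2, 4 and 44 to 46 between the lines, and 7 to 8 and 31 to 34 for the difference of effects.

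With arrays centred on the median, 6 members fell in A375M2 shFHL2 and 6 in shNFYA, 4 rose in PMEL, and 4 had a higher difference of effects. After quantile normalisation 19 fell in shNFYA, 4 fell in PMEL and 12 had a higher difference of effects. In PMEL 4 rose without the variance trend, 3 at an adjusted p under 0.01, 4 without replicate 3 of GFP and PMEL, and 4 fell with array weights, 4 with the mean of all probe sets and 8 with the most variable probe set, which also put 9 members higher between the lines. Without _x_at probe sets 4 members had a higher difference of effects. Over the 40 bright core genes alone, chosen after seeing the data, 6 fell in A375M2 shFHL2, 6 in shNFYA and 0 in PMEL (limma), 2 were lower in shFHL2 than in shNFYA, 0 were higher between the lines and 3 had a higher difference of effects. The causes were not tested beyond what each alternative changes.

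Signs turned as follows. In A375M2 shFHL2, RPL37A was at -0.92 and RPS16 at 0.24 without _x_at probe sets, RPS27L at 0.81 on its most variable probe set, RPS18 and RPL3 at 0.03 after centring, and RPS27 at -0.14 after quantile normalisation. In shNFYA the same settings gave -1.09 for RPL37A, 0.20 for RPS16, 0.83 for RPS27L (0.11 with the mean of its probe sets), 0.02 for RPL12, 0.04 for RPL7L1 and -0.18 for RPS27. In PMEL, RPS27L was at -0.54 (variable) and -0.07 (mean), and RPL37A at 0.31 without _x_at. Between shFHL2 and shNFYA, RPL37 was at 0.14 (mean) and RPL22 at -0.05 (variable), -0.02 (mean) and -0.21 (without _x_at). In C32 shFHL2, RPS27L was at -0.35 and RPS15A at 0.39 (variable), and RPL22 at -0.53 (variable), -0.06 (mean) and -0.13 (without _x_at). Between the lines, RPL37A was at -0.26 (without _x_at) and RPS27L at 0.11 (centred), 1.40 (variable) and 0.72 (mean). The difference of effects was -1.15 for RPS27L (variable), 0.06 for RPL37A (without _x_at), and 0.04 for RPL7 and 0.15 for RPS27 after quantile normalisation.

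With the replicate number as a block, 28 rose and 10 fell in A375M2 shFHL2, 6 and 2 in PMEL, 27 and 10 in shNFYA, 9 and 6 in shFHL2 against shNFYA, 11 and 18 in C32 shFHL2, 4 and 46 between the lines, and 7 and 32 for the difference of effects. By their labels, the replicates share only a number.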
